A study of Mus musculus with 12 samples.

Results

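The response of the ATF6bKO mouse colon to dextran sulfate sodium (DSS) was measured on 4 arrays, 2 of colon from mice given DSS and 2 of untreated (UT) colon, out of 12 arrays in the series. They were chosen by genotype and treatment in the sample titles, and all 4 lay on 1 slide. Both groups were male C57BL/6J mice labelled as a knockout of ATF6b. The DSS mice had drunk water with 3% DSS for 3 days, and the UT mice are labelled as untreated. The sources used here give neither age nor the knockout construct, nor do they say that the replicates were different mice. The p-values therefore measure the spread between the samples of the series, which may be technical. RNA came from snap-frozen colon, labelled with a single dye and hybridised to Agilent oligonucleotide arrays. The other arrays held 4 of ATF6aKO colon, 2 per treatment, and 4 of wild-type (WT) colon, whose labels conflict on treatment and which entered only the estimate of the spread and the check of the targeted gene.

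The endoplasmic reticulum (ER), where secreted proteins fold, carries ATF6a and ATF6b in its membrane, encoded by Atf6 and Atf6b. When unfolded proteins build up, they move to the Golgi, where the proteases encoded by Mbtps1 and Mbtps2 release a fragment that enters the nucleus and, with the CCAAT-binding factor NF-Y, acts on genes of ER chaperones. DSS injures the colonic epithelium, so that bacteria reach the mucosa, and leukocytes enter the tissue.

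Levels are given as log2 of the processed signal relative to the 75th percentile of the same array, in the order UT replicate 1, UT replicate 2, DSS replicate 1, DSS replicate 2. Changes are DSS minus UT in log2 units with a standard error (SE). P-values come from limma with Benjamini-Hochberg adjustment over the 23240 genes tested, and "rose" and "fell" mark an adjusted p under 0.05. Where an array is left out, its group holds a single array, which adds nothing to the estimate of the spread. Calls and p-values of such fits therefore do not measure the spread within that group, and only their effect sizes can be compared. Where the probe of a gene that rose or fell was not well above background on either array of the dimmer group, its fitted change has no firm size and a lower bound of the fold is given, set by the dimmest signal that was well above background. A gene was tested if its probe was well above background on both arrays of at least 1 group. Genes dim on the UT arrays thus entered through a brighter group, which favours rises. Genes dim on the DSS arrays likewise favour falls. The 75th percentile of the processed signal was 245.6 to 390.9 intensity units on the 4 arrays, the lowest of them on DSS replicate 2, and 26951 to 29089 of 41174 probes were well above background.

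The Atf6b probe was at -7.64, -6.48, -4.14 and -7.61, and it was well above background on DSS replicate 1 alone. Its mean over both treatments was -6.47, against -0.38 in WT, a difference of -6.09 (SE 0.64, adjusted p = 0.000228). With 3 of the 4 arrays not well above background its size is not firm, and with normexp background correction the difference was -2.26. Atf6, the related sensor, was at 0.74, 0.89, 1.14 and 1.22, and its difference from WT was 0.22 (SE 0.12, adjusted p = 0.15). The sources used here do not say where the Atf6b probe lies relative to the deleted part of the gene.

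All 4 arrays carried transcripts of intestinal epithelium. The epithelial lectin Lgals4 was at 8.74, 8.80, 9.05 and 9.19, the keratin of mature colonocytes Krt20 at 6.70, 6.86, 7.14 and 7.24, and the goblet cell mucus protein Fcgbp at 9.11, 9.53, 9.50 and 9.81. The intestinal transcription factor Cdx2 was at 1.89, 3.41, 2.17 and 2.52.

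The 2 DSS arrays differed in their content of other tissue. Genes of squamous epithelium, which lines the anal canal and skin, were far higher on DSS replicate 2: the keratin Krt1 of the upper squamous layers was at -7.74, -7.09, -3.60 and 2.31, and the basal layer keratin Krt5 at -4.07, -4.03, -0.40 and 3.56. Both squamous keratins were thus lowest on the UT arrays, intermediate on DSS replicate 1 and highest on DSS replicate 2. Of the 29 squamous genes with a probe, 14 and 15 were well above background on the UT arrays, 21 on DSS replicate 1 and 28 on DSS replicate 2. Their summed level, as multiples of the 75th percentile, was 41.7, 33.2, 31.7 and 117. The list holds genes that are not restricted to squamous tissue: Tgm3 (4.38, 3.63, 3.04 and 3.08), a transglutaminase, Serpinb5 (3.30, 3.29, 3.90 and 3.63), a serpin, and the desmosome protein Pkp1 were bright on every array.

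Of 21 squamous genes tested, 10 rose and 1, Pkp1 (log2 -0.95), fell. For comparison, 5.7% of all genes tested rose and 7.21% fell. The median change over the list was 0.95 on DSS replicate 1 and 4.58 on DSS replicate 2, each against the mean of the UT arrays. Krt1 (6.77, at least 31.4-fold, SE 1.52, adjusted p = 0.0217), Krtdap (6.57, at least 75.5-fold, SE 1.43, adjusted p = 0.0193), Krt6b (5.83, at least 14.5-fold, SE 1.02, adjusted p = 0.00817) and Krt5 (5.62, SE 0.97, adjusted p = 0.00775) had the highest fitted changes. Without DSS replicate 2, the median change over the list was 0.95, and Krt5 had a change of 3.64.

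Skeletal muscle genes stood apart on DSS replicate 2 as well. The fast muscle myosin Myh1 was at -3.75, -3.79, -6.70 and 2.52, lowest on DSS replicate 1 and highest on DSS replicate 2, and had the largest gap between the DSS arrays of any gene with a symbol under the rule used for such genes (9.22). The troponin genes Tnni2 (-0.74, -0.63, -0.64 and 4.60) and Tnnc2 (-1.35, -1.74, -2.85 and 5.04) were also far higher on DSS replicate 2. Their UT replicates and DSS replicate 1 lay close together or DSS replicate 1 was lowest. Of 10 skeletal muscle genes tested, 0 rose and 0 fell, with a list median of -0.52 on DSS replicate 1 and 2.17 on DSS replicate 2. Without DSS replicate 1, 4 rose, and without DSS replicate 2, 2 fell. Other genes much higher on DSS replicate 2 were Myh8, a myosin, and the cornified layer genes Lce1d, Lce1a1, Kprp and Calm4.

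Some B cell genes were higher on DSS replicate 1. Over the B and plasma cell list the median change was 2.57 on DSS replicate 1 and 1.41 on DSS replicate 2. The summed level of that list was 43.6, 100, 169 and 180, highest on DSS replicate 2. Pou2af1 (2.33 and 2.47) and Mzb1 (1.97 and 2.08) were also slightly higher there than on DSS replicate 1. The low-affinity IgE receptor Fcer2a was at -5.29, -5.96, -1.43 and -4.90, so that DSS replicate 1 stood above the other 3 arrays. Fcrl1, a B cell surface receptor, was also among the 10 genes furthest above on DSS replicate 1. These 10 genes were led by Reg3b, an antibacterial lectin of the gut epithelium, at -7.65, -8.06, -2.83 and -7.62. Over all genes, 319 differed by more than 2 between the DSS arrays and 253 between the UT arrays, and the standard deviation of the difference was 0.579 and 0.563. Because of these differences counts of calls are also given with each DSS array left out. The part of the squamous, muscle and B cell tissue in other changes was not tested.

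**Figure D1:**
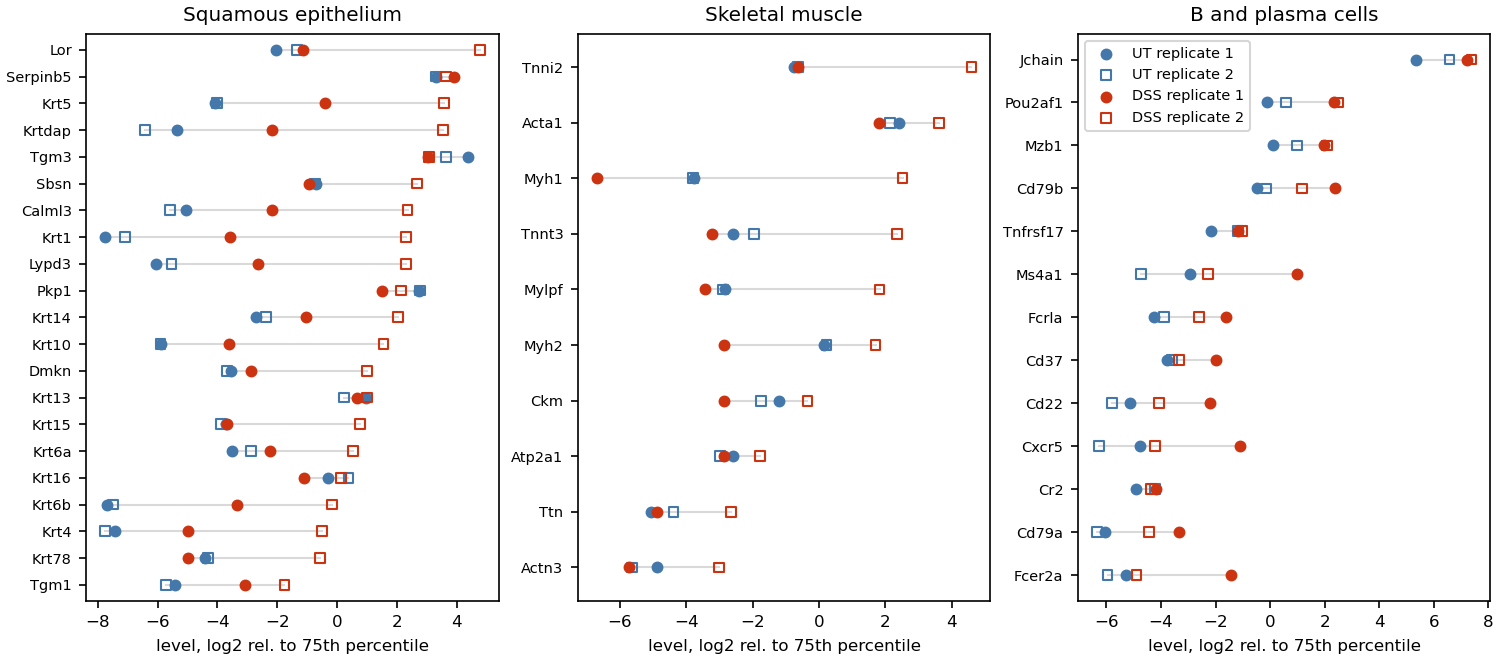
Level of tested genes of squamous epithelium, skeletal muscle and B and plasma cells (1 gene of the last list is not shown) on the 4 ATF6bKO arrays, as log2 relative to the 75th percentile of the array; each symbol is 1 array, blue for UT and red for DSS, and a grey line joins the lowest and highest. DSS replicate 2 (open red squares) lies furthest to the right for most squamous and muscle genes, such as Krt1 at 2.31 and Myh1 at 2.52, and DSS replicate 1 (filled red circles) for Fcer2a at -1.43.

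In all, 3000 genes passed the threshold (12.9% of those tested), of which 1325 rose and 1675 fell, and 2146 of them changed by at least 1. The median change of all genes was -0.06. With normexp background correction the split turned, with 978 that rose and 819 that fell. Without DSS replicate 1 the count was 1632 (7.02% of genes, 3.44% higher and 3.58% lower), and without DSS replicate 2 it was 1089 (4.69%, 2.33% higher and 2.36% lower), of which 1012 had also been called with all arrays. Without UT replicate 1 it was 1275, and without UT replicate 2 it was 1833, of which 1077 rose and 756 fell. Since all 12 arrays set the spread, it was 5281 when 1 of the WT arrays titled UT was left out.

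Leading genes were chosen by the widest gap between the nearest DSS and UT arrays, 14 in each direction. S100a8, a subunit of the neutrophil protein calprotectin, was at -7.33, -5.89, 2.07 and 1.91 and rose by 8.60 (at least 195-fold, SE 0.85, adjusted p = 0.00145). Its partner S100a9 was at -3.70, -3.45, 4.22 and 4.19 and rose by 7.78 (SE 0.59, adjusted p = 0.000712). Squamous epithelium also makes calprotectin, and its part in these values was not tested. Without DSS replicate 2 the changes were 8.68 and 7.79. Ido1, which degrades tryptophan, was at -2.92, -1.98, 3.60 and 4.48 and rose by 6.49 (SE 0.98, adjusted p = 0.00483). Acod1, the itaconate-making enzyme of activated macrophages, was at -6.39, -5.95, -0.36 and -0.29 and rose by 5.84 (adjusted p = 0.00329, at least 39.2-fold). By the way leading genes were chosen, both DSS arrays lay above both UT arrays in all 4 of these genes.

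Other leading genes that rose were the pattern receptor Clec4e (5.93, at least 13.4-fold), the ubiquitin-like protein Ubd (5.92), the iron-binding protein Ltf (5.57), the interferon-inducible GTPase Tgtp1 (5.06) and the granzyme Gzmc (4.99, at least 7.1-fold). The squamous gene Sprr2d (7.28, at least 35.9-fold, SE 1.11, adjusted p = 0.00494) had DSS arrays far apart, at -2.59 on DSS replicate 1 and 1.70 on DSS replicate 2, and it had adjusted p above the threshold in a fit of the 4 ATF6bKO arrays. The other 13 of the 14 genes that rose kept their call under every alternative run.

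Cldn2, a pore-forming claudin of the crypt, was at 1.98, 1.35, -4.05 and -3.76 and fell by 5.57 (log2 -5.57, SE 0.61, adjusted p = 0.00181). The stem cell receptor gene Lgr5 was at -1.04, -0.93, -5.78 and -5.65 and fell by 4.73 (log2 -4.73, at least 24.4-fold, SE 0.24, adjusted p = 0.000375). Nox1, the superoxide-making oxidase of colonic epithelium, was at -3.43, -3.38, -8.00 and -7.42 and fell by 4.31 (log2 -4.31, at least 4.67-fold, SE 0.39, adjusted p = 0.00117). The choice of leading genes by their gap sets the UT and DSS arrays apart for each of them. Neither DSS array was well above background for Lgr5 and Nox1.

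Axin2 (log2 -3.57), a target and brake of Wnt signalling, the DNA glycosylase Neil3 (log2 -3.49), the glucose-sensing transcription factor Mlxipl (log2 -3.32), Rnf32 (log2 -3.32), H2bc23 (log2 -4.13, at least 8.5-fold), which encodes a histone, and Greb1 (log2 -3.95, at least 3.93-fold) also fell. So did Nags (log2 -4.00, at least 4.09-fold), whose product switches on the urea cycle, Cdo1 (log2 -3.12), the cysteine dioxygenase, Pgk2 (log2 -4.26, at least 4.69-fold), a phosphoglycerate kinase, Prr18 (log2 -4.68, at least 5.73-fold) and 2200002J24Rik (log2 -3.38, at least 2.23-fold). With normexp the calls of Prr18, Nox1, Pgk2, Greb1, Nags and 2200002J24Rik were lost, all with both DSS arrays not well above background. Cdo1 did not pass without DSS replicate 1 (adjusted p = 0.0542) or UT replicate 1, nor H2bc23 in a fit of the 4 ATF6bKO arrays.

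**Figure D2:**
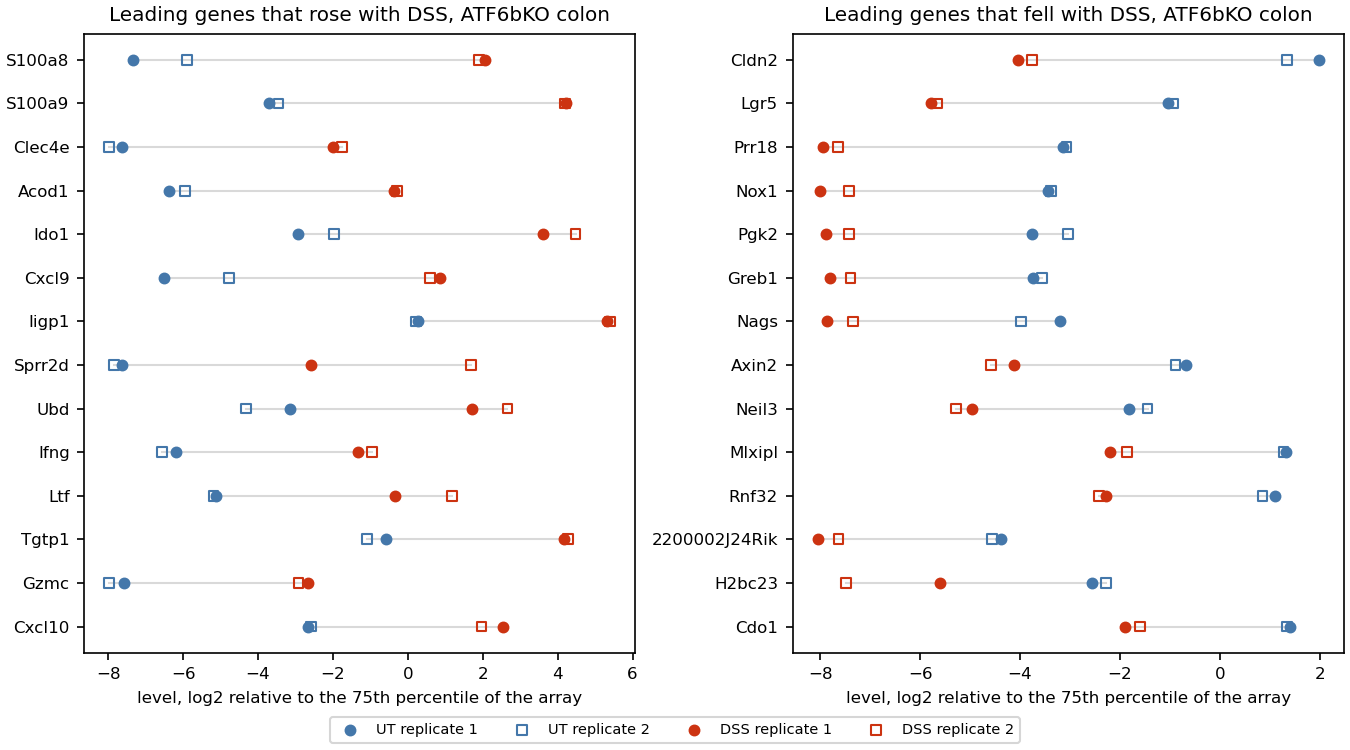
Level of the 14 leading genes that rose (left) and the 14 that fell (right) on each of the 4 ATF6bKO arrays, as log2 relative to the 75th percentile of the array; blue symbols are UT and red symbols DSS, and a grey line joins the lowest and highest array. The DSS arrays nearly coincide for most genes, as for S100a9 at 4.22 and 4.19, and differ most for Sprr2d at -2.59 and 1.70.

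Myeloid genes rose broadly. Of 20 neutrophil genes tested, 15 rose and 0 fell, with a median change of 2.94. The DSS arrays lay above the UT arrays for 19 of the 20, against 26.5% of all genes. Besides the genes above, the formyl peptide receptor Fpr2 (at least 10.8-fold) and the growth factor receptor Csf3r (at least 6.44-fold), chosen after their values were seen, rose from UT arrays not well above background. Cd177, a neutrophil surface protein that colonocytes also make, was at 1.28, 0.96, 0.31 and 0.05 (log2 -0.95, adjusted p = 0.17) and ran against the list. The count was 12 without DSS replicate 1 and 11 without DSS replicate 2. In bulk tissue, more cells of a type and more RNA per cell cannot be told apart, nor can fewer cells and less RNA.

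Of 20 genes of monocytes and macrophages, 14 rose and 0 fell, with a median of 1.62. The lectin Chil3 was at -4.32, -3.60, -0.51 and -0.04 and rose by 3.68 (SE 0.62, adjusted p = 0.00702), the secreted protein Spp1 rose by 3.56 (adjusted p = 0.00649, at least 3.18-fold) and the activating Fc receptor Fcgr1 by 2.78 (SE 0.32, adjusted p = 0.00195). Arg1, which splits arginine and is made by both macrophages and squamous epithelium, rose by 3.44 (adjusted p = 0.0256), with -1.56 on DSS replicate 1 and 0.44 on DSS replicate 2, and did not pass without DSS replicate 2 (adjusted p = 0.158). The count fell to 8 without DSS replicate 1 and to 6 without DSS replicate 2.

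Among NADPH oxidases and antioxidants, 6 of 18 rose and 2 fell (median 0.32). The subunits of the phagocyte oxidase Cybb (2.30, SE 0.30, adjusted p = 0.00272) and Ncf4 (1.54, SE 0.29, adjusted p = 0.0107) rose, while the epithelial oxidase Nox1 and its activator Noxa1 (log2 -1.04, adjusted p = 0.0472) fell. Inducible nitric oxide synthase Nos2 rose by 3.61 (at least 6.04-fold, SE 0.27, adjusted p = 0.000712). Without DSS replicate 1 the counts were 3 and 1, and without DSS replicate 2 they were 5 and 1.

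Antimicrobial and acute-phase genes had 6 of 18 members that rose and 0 that fell (median 0.61). Wfdc21 was at -6.31, -6.06, -2.03 and 0.82, a rise of at least 32.2-fold (fitted change 5.58, SE 0.78, adjusted p = 0.00353). Others that rose were the protease inhibitor Slpi (3.65, SE 0.54, adjusted p = 0.00439), Nos2 and the siderophore-binding Lcn2 (2.68, SE 0.35, adjusted p = 0.00272). The serum amyloid genes went the other way without passing. Saa1 was at 8.08, 7.94, 6.66 and 6.09 (log2 -1.63, SE 0.47, adjusted p = 0.0532) and Saa2 had a change of -1.53 (SE 0.43, adjusted p = 0.0506), with both DSS arrays below both UT arrays in each case. These serum amyloid genes, chosen after their values were seen, were thus well above background in UT colon.

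Acute inflammatory cytokines and chemokines rose in 17 of 20 cases and fell in 0, with a median of 3.15, and the DSS arrays lay above the UT arrays for each of the 20. A further 4 members were too dim to be tested. The count was 12 without DSS replicate 1 and 13 without DSS replicate 2. Interferon-gamma, Ifng, was at -6.19, -6.56, -1.34 and -0.96 and rose by 5.22 (at least 22.1-fold, SE 0.62, adjusted p = 0.00205). Il6 was at -5.71, -6.33, -1.22 and -0.84 and rose by 4.99 (at least 24.1-fold, SE 0.47, adjusted p = 0.00131), and Il22, a cytokine of lymphocytes that acts on epithelium, was at -7.78, -8.06, -2.57 and -3.52 and rose by 4.88 (at least 5.95-fold, SE 0.55, adjusted p = 0.00193). None of the 3 was well above background on a UT array, so each entered the test through a brighter group. Ccl3, a chemokine for phagocytes, rose by 4.37 (adjusted p = 0.00247, at least 9.83-fold), and Tnf (3.96) and Il1b (3.55), chosen after their values were seen, rose too. Ptgs2, Osm and Cxcl5 did not pass (1.07, 1.11 and 3.30).

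NF-kB is a transcription factor of inflammation. The letters GGGNNTTTCC, a simplified form of its site read on both strands, occurred in 6 of the 18 list genes with a promoter in the RefSeq table of build GRCm38.p6 (33.3%), against 1.89% of 27025 genes, where a promoter is the 250 bases before to 50 after the start of a gene. All 6 genes with a match rose, as did 8 of the 12 without, of which 3 were not tested and 1 did not pass. The 250 bases before the start of Il6, the tested gene of the list with a match there that changed most, lie at chr5:30012864-30013113 on the + strand, with the match in capitals 44 bases before the start.
Il6: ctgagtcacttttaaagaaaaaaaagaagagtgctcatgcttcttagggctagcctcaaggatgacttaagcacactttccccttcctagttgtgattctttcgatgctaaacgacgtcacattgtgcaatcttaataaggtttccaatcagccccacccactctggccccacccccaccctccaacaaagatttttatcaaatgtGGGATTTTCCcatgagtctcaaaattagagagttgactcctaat
A match is a description of letters and does not show binding.

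Interferon-stimulated genes rose in 24 of 28 cases and fell in 0, with a median of 2.21, and the DSS arrays lay above the UT arrays for all 28. The count was 18 without DSS replicate 1 and also without DSS replicate 2. The chemokines for activated T cells Cxcl9 and Cxcl10 were at -6.51, -4.77, 0.87 and 0.60 and at -2.67, -2.59, 2.53 and 1.97. They rose by 6.37 (SE 0.68, adjusted p = 0.00172) and 4.88 (SE 0.295, adjusted p = 0.000594). The GTPase Iigp1, which acts on vacuoles of intracellular microbes, was at 0.28, 0.22, 5.30 and 5.40 and rose by 5.11 (SE 0.70, adjusted p = 0.00338). The replicates of each group nearly coincided for Iigp1. Genes that type I interferon and viral RNA also induce were among those that rose, such as Ifit3 (2.27), Isg15 (1.96) and Ifit1 (1.82), shown after their values were seen. The members that did not pass were Irf7, Ddx58, Rsad2 and Oas2, with changes of 0.39, 0.70, 0.80 and 0.92.

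The interferon-stimulated response element, here the core letters GAAANNGAAA on either strand, occurred in 14 of 22 genes of the list with a promoter (63.6%), against 3.99% of all genes. Of the 14, 12 rose, and of the 8 without a match 7 rose. The upstream bases of Cxcl10, the gene with a match there that changed most, lie at chr5:92348890-92349139 on the - strand, with the match in capitals 213 bases before the start.
Cxcl10: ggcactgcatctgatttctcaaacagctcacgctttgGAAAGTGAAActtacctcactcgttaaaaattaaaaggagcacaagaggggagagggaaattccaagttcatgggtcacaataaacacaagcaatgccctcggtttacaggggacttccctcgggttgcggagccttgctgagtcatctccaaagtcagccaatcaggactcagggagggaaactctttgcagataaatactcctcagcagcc

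Genes of antigen presentation by MHC class II rose in 6 of 10 cases (median 2.46, 4 with either DSS array left out). The peptide-loading protein H2-DMa (2.83, adjusted p = 0.0184), the alpha chain H2-Aa (2.77, SE 0.37, adjusted p = 0.00317), H2-DMb1 (2.76, SE 0.28, adjusted p = 0.00149) and the invariant chain Cd74 (2.73, adjusted p = 0.0167) rose most. H2-Aa was at 1.21, 2.04, 4.14 and 4.65, with both DSS arrays above both UT arrays. H2-Ob, H2-Oa and H2-DMb2, which B cells make, were higher on DSS replicate 1 than on DSS replicate 2 and did not pass.

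Of 18 genes of T and NK cells, 15 rose and 0 fell (median 2.55, 11 with either DSS array left out). The lymphocyte chemokine Xcl1 was at -6.95, -5.14, -1.87 and -1.94 and rose by 4.14 (SE 0.51, adjusted p = 0.00229). Ccl5 (3.71, SE 0.43, adjusted p = 0.00193), the granzyme Gzma (3.49, SE 0.56, adjusted p = 0.00617) and the cytotoxic T cell coreceptor Cd8a (3.39, SE 0.45, adjusted p = 0.00293) rose as well. The helper T cell coreceptor Cd4 was at -5.50, -5.28, -5.09 and -4.67, and its change of 0.50 did not pass (adjusted p = 0.159). Foxp3 and Ncr1, markers of regulatory T cells and of NK cells, were not tested, as neither was well above background on both arrays of any group. On DSS replicate 1, though, 20 of the 20 list members with a probe were well above background.

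B and plasma cell genes rose in 4 of 14 cases (median 2.02). Without DSS replicate 1 the count was 0, and without DSS replicate 2 it was 3. Cd79a (2.30, at least 3.3-fold) and Cd79b (2.08), the signalling chains of the B cell receptor, Pou2af1 (2.17), a B cell transcription cofactor, and Mzb1 (1.47), an ER protein of plasma cells, passed, with adjusted p between 0.0218 and 0.0472. Among mast cell genes Hdc, which makes histamine and is also expressed by neutrophils, alone rose (2.42, SE 0.59, adjusted p = 0.0289; 1 of 10, median 1.11), and the count was 0 with either DSS array left out.

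**Figure D3:**
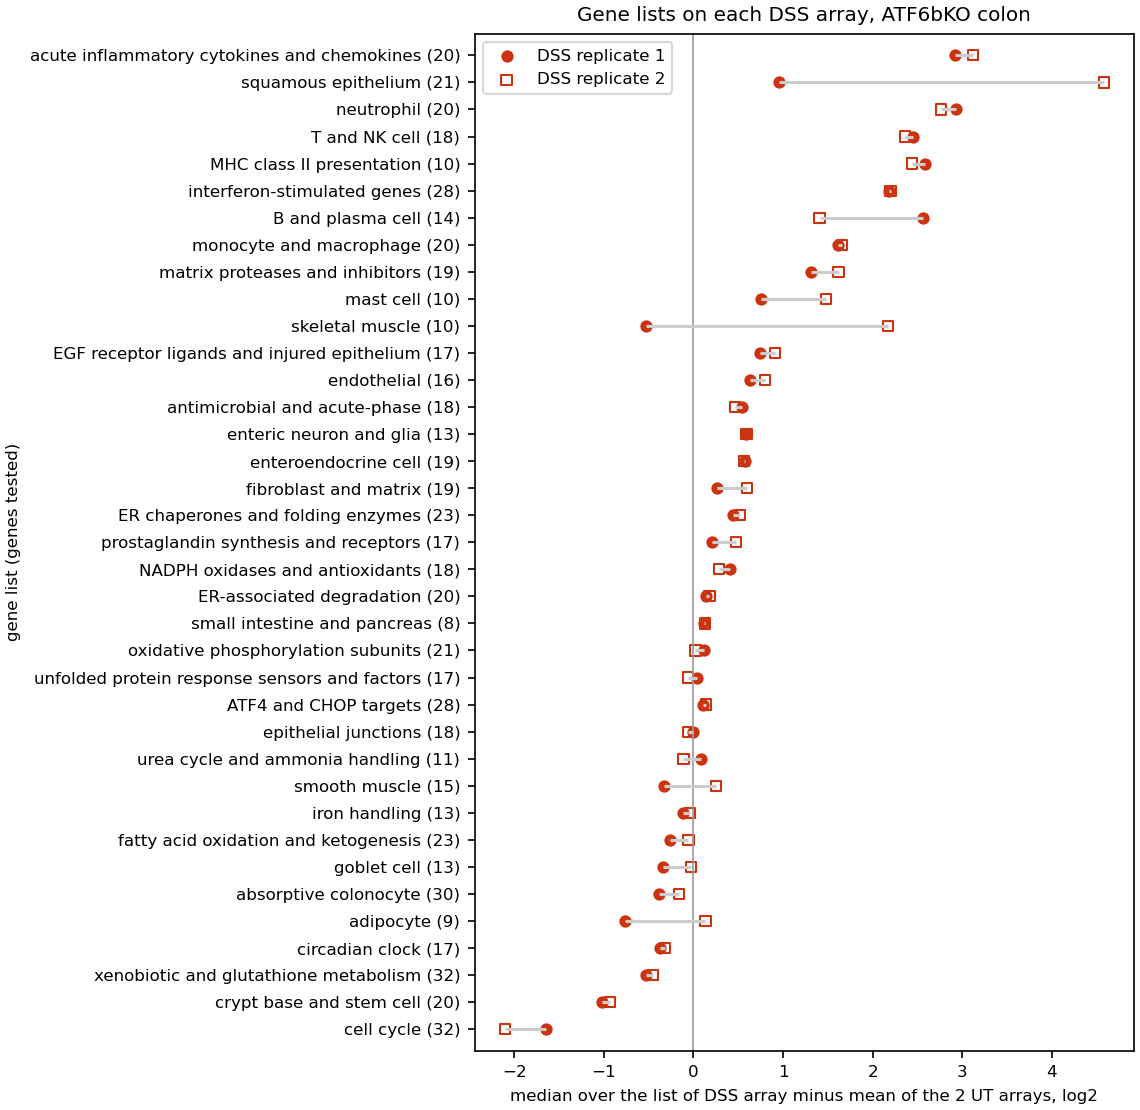
Median over the tested genes of each of 37 lists of the level on a DSS array minus the mean of the 2 UT arrays (log2), separately for DSS replicate 1 (filled circles) and DSS replicate 2 (open squares) in ATF6bKO colon; the number of genes tested is in brackets. The arrays lie together for most lists, such as interferon-stimulated genes (2.18 and 2.20), and apart for squamous epithelium (0.95 and 4.58), skeletal muscle (-0.52 and 2.17) and B and plasma cells (2.57 and 1.41).

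Matrix proteases and their inhibitors rose in 11 of 19 cases (median 1.58, 8 without DSS replicate 1 and 7 without DSS replicate 2). Mmp3, a stromelysin of activated fibroblasts, was at -2.52, -3.02, 1.81 and 1.52 and rose by 4.44 (SE 0.35, adjusted p = 0.000712). Mmp10 was at -4.33, -4.11, 0.18 and 0.06 and rose by 4.34 (SE 0.41, adjusted p = 0.00131), and Mmp13 rose by 3.45 (SE 0.34, adjusted p = 0.00145). The neutrophil collagenase Mmp8 was at -7.61, -7.98, -3.71 and -4.16, a rise of at least 3.21-fold (adjusted p = 0.00294).

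Of 19 fibroblast and matrix genes 2 rose, the growth factor receptor Pdgfra (1.13, SE 0.22, adjusted p = 0.0131) and the lymphatic and fibroblast protein Pdpn (1.05, adjusted p = 0.0484), with a median of 0.46 and 0 with either DSS array left out. The collagen genes Col1a1 and Col3a1 had changes of 0.67 and 0.41. Among all genes tested 5.7% rose and 7.21% fell. Of 15 smooth muscle genes 1 fell, the calcium store protein Casq2 (log2 -0.97, adjusted p = 0.0157), with a median of -0.04 and 0 with either DSS array left out. Endothelial genes rose in 6 of 16 cases (median 0.72, 4 without DSS replicate 1 and 2 without DSS replicate 2), led by the leukocyte adhesion molecules Selp (2.92, SE 0.35, adjusted p = 0.00213) and Vcam1 (2.35, SE 0.28, adjusted p = 0.00222). Pecam1, which marks endothelium in general, had a change of 0.65 (adjusted p = 0.134). Genes of enteric neurons and glia rose in 4 of 13 cases (Elavl4 by 1.13, Tubb3 by 0.70, Gal by 0.59 and Nos1 by at least 1.03-fold, with 1 of its 4 arrays well above background; median 0.59), with 1 left without DSS replicate 1 and 0 without DSS replicate 2.

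In the epithelium, genes of the crypt base and stem cells fell in 13 of 20 cases and rose in 0 (median -0.97, 7 with either DSS array left out). After Lgr5 and Axin2 came Cdca7, a target of MYC, at 1.25, 1.08, -1.24 and -1.23 (log2 -2.40, SE 0.19, adjusted p = 0.000712), and Ephb3, a receptor by which crypt cells keep their position, at 1.38, 1.21, -0.66 and -0.44 (log2 -1.84, SE 0.18, adjusted p = 0.00131). For both, the replicates of a group lay close together and the groups far apart. The members that did not pass included Sox9 (log2 -0.83) and, on the other side of 0, Cd44 (0.74), Msi1 (0.69) and Nkd1 (0.37).

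Cell cycle genes fell in 29 of 32 cases, with a median of -1.86, and the DSS arrays lay below the UT arrays for 31 of 32, against 37.1% of all genes. The count was 26 without DSS replicate 1 and 14 without DSS replicate 2. Cdc25c, a phosphatase that starts mitosis, fell by 2.92 (log2 -2.92, at least 3.14-fold, adjusted p = 0.0194) and the centromere protein Cenpf by 2.44 (log2 -2.44, SE 0.31, adjusted p = 0.00251). The spindle motor Kif11 was at -1.75, -1.69, -3.66 and -4.64 (log2 -2.43, SE 0.35, adjusted p = 0.00422), and the mitotic kinase Cdk1 was at -0.15, -0.28, -2.45 and -2.82 (log2 -2.42, SE 0.30, adjusted p = 0.00248). DSS replicate 2 was the lower DSS array for each of them. Cdc25c did not pass without DSS replicate 2 (adjusted p = 0.124). Bub1 alone rose (1.19, adjusted p = 0.0186), but its probes disagreed, and the mean of its probes gave -0.61 (adjusted p = 0.172).

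The cell cycle genes homology region, the letters TTTGAA on either strand, is a site through which many mitotic genes are silenced in resting cells. It occurred in 13 of 27 cell cycle genes with a promoter (48.1%), against 20.2% of all genes. All 13 fell, as did 12 of the 14 without a match. The upstream bases of Kif11, the gene with a match there that changed most, lie at chr19:37376132-37376381 on the + strand, with the match in capitals 19 bases before the start, on the opposite strand.
Kif11: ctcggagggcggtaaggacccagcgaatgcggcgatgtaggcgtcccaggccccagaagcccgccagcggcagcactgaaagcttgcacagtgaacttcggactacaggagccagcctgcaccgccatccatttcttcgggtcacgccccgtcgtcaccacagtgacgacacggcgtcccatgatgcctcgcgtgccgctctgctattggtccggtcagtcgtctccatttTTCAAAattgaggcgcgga

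Among mature epithelial classes, of 30 absorptive colonocyte genes 6 fell and 1 rose, with a median of -0.26. The sodium channel subunit Scnn1b (log2 -1.58, adjusted p = 0.0284), the brush border protease Mep1a (log2 -1.47, adjusted p = 0.00989), the gut hormone precursor Guca2b (log2 -1.28, adjusted p = 0.00914) and the sulfotransferase Sult1a1 (log2 -1.25, adjusted p = 0.0358) fell most, and the bile acid exporter subunit Slc51b rose (1.87, SE 0.39, adjusted p = 0.0166). Car4 and the water channel Aqp8 fell by 1.18 and 1.11 (log2 -1.18 and -1.11). The counts were 1 and 0 without DSS replicate 1 and 2 and 1 without DSS replicate 2. Of 13 goblet cell genes 0 passed, also with either DSS array left out, at a median of -0.19, with the secretory lineage factor Atoh1 (log2 -1.02, adjusted p = 0.108) and the goblet cell ER stress sensor Ern2 (log2 -0.79, adjusted p = 0.203) at the low end. The mucus genes Clca1 and Fcgbp had changes of 0.31 and 0.34.

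Enteroendocrine genes rose in 5 of 19 cases and fell in 0 (median 0.56). The glucagon gene Gcg was at 1.63, 1.69, 2.87 and 3.08 and rose by 1.31 (SE 0.17, adjusted p = 0.00251), the substance P gene Tac1 by 1.20 (adjusted p = 0.033), the cholecystokinin gene Cck by 1.15 (adjusted p = 0.0362) and the satiety hormone gene Pyy by 1.09 (adjusted p = 0.00757). The DSS arrays lay above the UT arrays for 17 of 19. Without DSS replicate 1 the count was 1, and without DSS replicate 2 it was 2. Among genes of small intestine and pancreas, Fabp6, the bile acid binding protein of ileum, rose alone (1 of 8, median 0.08), from -4.94 and -4.30 to -1.20 and -0.89 (3.58, SE 0.33, adjusted p = 0.00126), and it rose with either DSS array left out. Apoa1 and Apoa4 of the small intestine were too dim to be tested. Of 9 adipocyte genes 0 passed, also with either DSS array left out (median -0.33).

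Of 18 epithelial junction genes 2 fell and 2 rose (median -0.01). For comparison, 5.7% of all genes tested rose and 7.21% fell. The 14 others of the list, further claudins among them, did not pass. Cldn15 (log2 -1.84, SE 0.23, adjusted p = 0.00257) fell with Cldn2, both claudins that form cation pores, while Cldn4 (1.20, adjusted p = 0.0277) and Cldn8 (0.99, adjusted p = 0.0247), claudins that seal junctions, rose. With either DSS array left out the 2 falls were still called and the rises were not. E-cadherin Cdh1 and the scaffold Tjp1 had changes of 0.15 and 0.08. In the list of EGF receptor ligands and injured epithelium 5 of 17 rose (median 0.91, 5 without DSS replicate 1 and 3 without DSS replicate 2). They were Sprr1a (3.79, adjusted p = 0.0114), the stromal ligand Nrg1 (2.25, SE 0.35, adjusted p = 0.00525), the regenerating crypt marker Ly6a (1.90, adjusted p = 0.00691), the alarmin Il33 (1.74, adjusted p = 0.0131) and the ligand Areg (1.36, adjusted p = 0.00771). Sprr1a, which squamous epithelium also makes, was at -1.52, -1.03, 1.47 and 3.57 and did not pass without DSS replicate 2 (adjusted p = 0.0631).

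Genes of the unfolded protein response, the pathway of the deleted protein, passed at a share near that of all genes, of which 5.7% rose and 7.21% fell. Of 17 sensors and factors 1 rose, Dnajc3 (0.66), and 1 fell, Nfya (log2 -1.19, SE 0.25, adjusted p = 0.0162), the DNA-binding subunit of NF-Y, at -0.66, -0.24, -1.51 and -1.76. The list median was 0.03, against -0.06 for all genes. The counts were 0 and 1 without DSS replicate 1, and 1 (Atf6b) and 0 without DSS replicate 2. Nfya had a change of -1.06 (adjusted p = 0.108) without DSS replicate 2. Atf6 had a change of 0.36 (adjusted p = 0.208). The protease gene Mbtps1 was at 4.15, 4.20, 4.10 and 4.04, a change of -0.10, and Mbtps2 had a change of 0.37. Atf6b itself had a change of 1.19 (SE 0.91, adjusted p = 0.438), and it was 2.92 without DSS replicate 2 and -0.55 without DSS replicate 1.

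The rest of the list, which includes genes of the parallel branches, did not pass in the fit of all arrays. Ddit3, Eif2a and Creb3 did in 3 of 22 alternatives. The transcription factor Xbp1 was at 2.28, 1.92, 2.27 and 2.39 (0.23, SE 0.32, adjusted p = 0.697), and its activator Ern1 had a change of 0.16 (adjusted p = 0.752). Atf4 was at 1.67, 1.44, 0.85 and 0.83 (log2 -0.71, SE 0.25, adjusted p = 0.0958) and its target Ddit3, which encodes CHOP, at -0.36, -0.20, -0.75 and -0.75 (log2 -0.47, SE 0.15, adjusted p = 0.0695). For both, the DSS arrays lay below the UT arrays. The kinase gene Eif2ak3 had a change of -0.13. The list also held the initiation factor gene Eif2a, which had a change of -0.64 (adjusted p = 0.0686). The remaining members, Creb3 (0.39), Creb3l2 (0.33), Traf2 (0.03), Nfyb (-0.07) and Nfyc (-0.34), had adjusted p of 0.166 or above.

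ER chaperones and folding enzymes were higher by small amounts. The DSS arrays lay above the UT arrays for 21 of 23, against 26.5% of all genes, with a median change of 0.44, and 4 passed. The chaperone Hyou1 was at 2.57, 2.97, 3.70 and 3.93 and rose by 1.04 (SE 0.25, adjusted p = 0.027). Creld2, a folding factor, was at 5.02, 5.17, 5.88 and 6.11 and rose by 0.90 (SE 0.19, adjusted p = 0.0167). The oxidase Ero1b rose by 0.74 (SE 0.17, adjusted p = 0.0266), and the cochaperone Dnajc3 by 0.66 (SE 0.17, adjusted p = 0.0412), whose call was lost in 13 of 22 alternatives. The 2 exceptions to the direction were Pdia5 (log2 -0.46) and Txndc5 (log2 -0.48), which did not pass.

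Hspa5, which encodes the main ER chaperone BiP, was at 5.67, 5.96, 6.72 and 6.70, and its change of 0.89 (SE 0.27) did not pass (adjusted p = 0.0659), though both DSS arrays lay above both UT arrays. It passed in 5 of 22 alternatives, among them the fit of the 8 knockout arrays. Without DSS replicate 2 the count of the list was 0, without DSS replicate 1 it was 2, Creld2 and Ero1b, and the medians were 0.44 and 0.52. Among 20 genes of ER-associated degradation 0 passed, also with either DSS array left out (median 0.17), with Derl3 at -0.14, 1.09, 1.60 and 1.79 (1.22, adjusted p = 0.123) the furthest from 0. Among all genes tested 5.7% rose and 7.21% fell. Of 28 targets of ATF4 and CHOP 2 rose, Wars (1.77, SE 0.20, adjusted p = 0.00193), the tryptophan tRNA synthetase, which is also induced by interferon-gamma, and Cebpb (1.33, adjusted p = 0.00697). Cth, an enzyme of cysteine synthesis, fell (log2 -1.53, adjusted p = 0.00872), and the list median was 0.01. Without DSS replicate 1 the same numbers were called, and without DSS replicate 2 the numbers were 1 and 0.

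The ER stress response element, to which ATF6 binds with NF-Y, was searched as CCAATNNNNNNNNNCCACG on both strands. It occurred in 8 of 22 ER chaperone genes with a promoter (36.4%), against 0.137% of all genes, that is 37 of 27025. The letters TGACGTGG, a site for ATF6 alone whose last letters are the reverse complement of CCACG, occurred in 1 of the 22 (4.55%), against 0.714%. Of the 8 genes with the element 3 rose, Dnajc3, Creld2 and Ero1b, and Hspa5, at 0.89, did not pass. Of the 22 genes with a promoter, 14 do not hold the element. The first site of 5 genes is shown in the orientation of the motif, with its ends in capitals, to show the element itself. In GRCm38.p6 they lie at chr2:34772025-34772043 (Hspa5), chr15:88819520-88819538 (Creld2), chr14:118937827-118937845 (Dnajc3), chr13:12565682-12565700 (Ero1b) and chr10:86705638-86705656 (Hsp90b1).
Hspa5: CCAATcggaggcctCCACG
Creld2: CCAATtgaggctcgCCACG
Dnajc3: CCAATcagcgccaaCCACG
Ero1b: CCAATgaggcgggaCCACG
Hsp90b1: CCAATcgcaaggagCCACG
The changes of these genes were 0.89, 0.90, 0.66, 0.74 and 0.51 in that order. The upstream bases of Hspa5 lie at chr2:34771840-34772089 on the + strand, with its match 65 bases before the start.
Hspa5 promoter: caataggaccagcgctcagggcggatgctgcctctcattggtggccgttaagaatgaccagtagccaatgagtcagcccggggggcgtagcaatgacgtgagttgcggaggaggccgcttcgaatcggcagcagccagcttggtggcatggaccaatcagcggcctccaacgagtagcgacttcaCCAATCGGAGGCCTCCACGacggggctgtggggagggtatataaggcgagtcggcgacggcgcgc

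**Figure D4:**
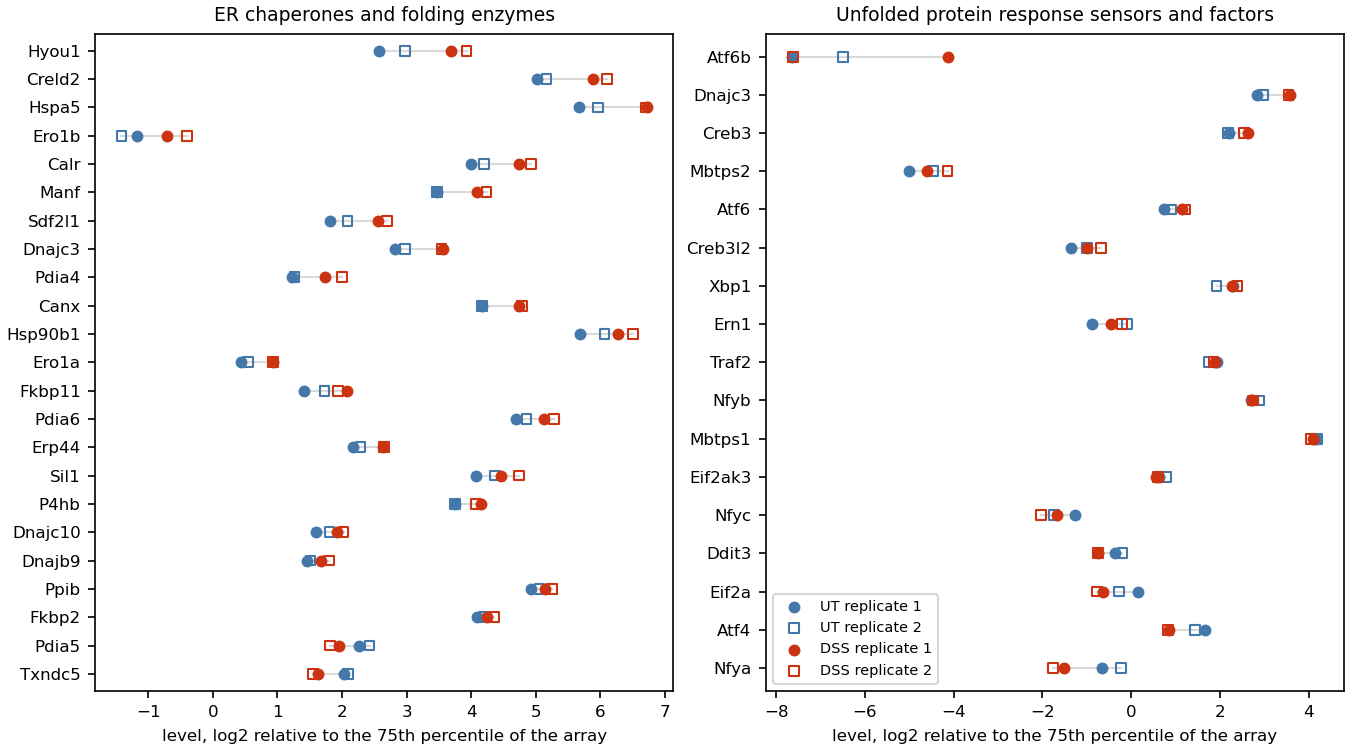
Level of each ER chaperone or folding enzyme gene (left) and each sensor or factor of the unfolded protein response (right) on the 4 ATF6bKO arrays, as log2 relative to the 75th percentile of the array; blue symbols are UT and red symbols DSS. Both DSS arrays lie to the right of both UT arrays for 21 of 23 chaperone genes, as for Hspa5 at 6.72 and 6.70 against 5.67 and 5.96, while on the right the DSS arrays lie above the UT arrays for 3 of 17 genes and below them for 6, with Atf6b furthest out on DSS replicate 1 (-4.14).

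Whether the response differed from that of colon lacking the other ATF6 gene was tested as the difference of the DSS changes, ATF6bKO minus ATF6aKO, each within its own slide. With limma 0 genes passed (0% of 23240), 1854 had an unadjusted p under 0.05, and leaving out ATF6bKO DSS replicate 1 gave 83. The lowest adjusted p was that of Prr18 (0.0737), with a change of -4.68 in ATF6bKO and -0.12 in ATF6aKO. Cxcl10 changed by 4.88 and 1.66 (difference 3.22, SE 0.42, adjusted p = 0.144), S100a8, not well above background on the ATF6bKO UT arrays, by a fitted 8.60 and 3.97 (adjusted p of the difference 0.366), and Ido1 by 6.49 and 1.72 (difference 4.77, SE 1.39, adjusted p = 0.433). For the crypt genes the values were close, with Cldn2 at -5.57 and -5.55 (difference -0.02, SE 0.86, adjusted p = 0.999) and Lgr5 at -4.73 and -4.06 (difference -0.67, SE 0.34, adjusted p = 0.693). The genes named here were leading genes, chosen by their gap in ATF6bKO alone. That choice favours a larger change in ATF6bKO than in ATF6aKO.

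By list, the change was larger in ATF6bKO than in ATF6aKO for 28 of 28 interferon-stimulated genes (medians 2.21 and 0.64), 20 of 20 neutrophil genes (2.94 and 1.44), 20 of 20 acute inflammatory genes (3.15 and 1.90) and 10 of 10 MHC class II genes (2.46 and 0.78), against 9393 of 23240 genes tested. Members dim on the UT arrays could enter the test through bright ATF6bKO DSS arrays, which favours a larger change there. The squamous list had 18 of 21 larger (3.04 and 0.42), and smooth muscle genes 0 of 15 (-0.04 and 0.63). Cell cycle genes had medians of -1.86 and -1.47 and crypt genes of -0.97 and -0.88. ER chaperones had medians of 0.44 and 0.09, with 21 of 23 larger in ATF6bKO, and the lowest adjusted p of a difference in that list was 0.522. No difference in these lists passed the test, and slide, animals and genotype cannot be told apart in it.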

How the data were processed

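Colon RNA of the 12 samples was hybridised with Cy3, 1 array per sample. Arrays were read with Agilent Feature Extraction 10.7.1.1, per the submitters' processing notes. The processed signal used here is an intensity that the authors deposited, background-corrected by the scanner software per the file headers. The deposited value table, used as an alternative, holds log2 values centred on each probe's mean, judged by comparison with the arrays, and its scaling between arrays stays unknown. Its ATF6bKO columns (medians 0.0866 to 0.242) correlated best with their own arrays. The WT columns (medians -0.465 to -0.201) did so with the WT arrays of the opposite title, and the ATF6aKO columns (medians 0.008 to 0.12) with the other replicate of the same group.

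Control spots and outliers were left out, spots of a probe averaged, and log2 of each signal was taken relative to the 75th percentile of its array. Probes were named by accession through a RefSeq table, 25193 of 41174 to 1 symbol, the others staying unnamed here. Probes well above background on both arrays of at least 1 group were tested with the brightest such probe per gene in limma 3.58.1 (R 4.3.3), with 6 group means over 12 arrays and Benjamini-Hochberg adjustment. The code was tested on simulated data.

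The samples and 37 gene lists were chosen with earlier results of these data known. Genes named were the 14 each way with the widest gap between the nearest DSS and UT arrays, up to 4 per list and direction (2 largest where none passed), the unfolded protein response list and the 10 each way that differed most between the DSS arrays; others are said to be chosen after their values were seen or shown as members that did not pass. A few genes that these rules name are not reported here. Alternatives were the arrays in the fit, normexp on median signals, other scalings, filters, probe rules, the value table, a replicate block and leaving out each array. Precision is limited by the number of arrays.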

Additional observations from a re-analysis of the deposited data

How the results depend on the processing

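The count of 3000 was 1800 in a fit of the 4 ATF6bKO arrays, 4625 with the 8 knockout arrays and 1797 with normexp, and with single arrays left out it ranged from 1089 to 5281. With the replicate number as a block it was 1937. Same-numbered arrays did not deviate together (correlation -0.018 in ATF6bKO and 0.075 in ATF6aKO). With 2 arrays per group these correlations cannot settle whether the numbers pair the arrays. The count of genes whose response differed between the knockouts was 4 with the 8 knockout arrays, 5 with quantile normalization, 1 with median scaling and 1 with the value table, and 0 to 83 with single arrays left out, 83 of them without ATF6bKO DSS replicate 1 and 4 without either WT array titled DSS. Atf6b against WT ranged from -6.96 to -5.22 with single arrays left out and was -2.26 with normexp. The sign turned for Atf6b (-0.55 without DSS replicate 1, 2.92 without DSS replicate 2), Ern1 (-0.23 without UT replicate 1, 0.55 without UT replicate 2), Nfyb (0.02 without UT replicate 2, -0.15 without UT replicate 1), Traf2 (-0.04 with normexp, -0.07 without UT replicate 2, 0.12 without UT replicate 1), the muscle gene Mylpf (-0.57 without DSS replicate 2, 4.69 without DSS replicate 1), the adipocyte gene Adipoq (0.02 without DSS replicate 1, -1.18 without DSS replicate 2) and Bub1 (-0.61 with the mean of probes). The cause was not tested. The difference between knockouts could not be fitted on 4 arrays, nor Atf6b against WT without WT arrays.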

Other observations

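Metabolic genes of the colon differed by list. Among all genes tested 5.7% rose and 7.21% fell. Both DSS arrays lay below both UT arrays for 21 of 32 xenobiotic and glutathione genes, against 37.1% of all genes. Of 32 genes of xenobiotic and glutathione metabolism 5 fell and 1 rose (median -0.52), and with either DSS array left out 2 fell and 1 rose. The glutathione transferase Gsta3 was at 2.61, 2.70, 0.03 and -0.02 (log2 -2.65, SE 0.45, adjusted p = 0.0073), and the glucuronosyltransferase Ugt2b35 fell by 2.44 (log2 -2.44, adjusted p = 0.00491), both also with either DSS array left out. Ces1d (log2 -1.18) and Ugt2b34 (log2 -0.92) fell too, with Sult1a1. The haem-degrading enzyme Hmox1 rose by 1.43 (SE 0.20, adjusted p = 0.00357). Of 23 genes of fatty acid oxidation 0 passed (median -0.16; 1 rose without DSS replicate 1, Pdk4), with the fuel switch kinase Pdk4 at -1.13, -1.29, -0.78 and 0.55 (adjusted p = 0.0769) and the regulator Ppara at a change of -0.90 (adjusted p = 0.181). Of 21 subunits of oxidative phosphorylation 0 passed, also with either DSS array left out (median 0.04), with the succinate dehydrogenase subunit Sdha at 2.23, 2.09, 1.92 and 1.81 (log2 -0.30, adjusted p = 0.242).

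The counts of this paragraph stand against 5.7% of all genes tested that rose and 7.21% that fell. Among 13 iron genes (median -0.08) the metalloreductase Steap4 rose by 2.26 (SE 0.19, adjusted p = 0.000791). Hamp, which encodes the iron hormone hepcidin, was at -2.96, -2.14, -5.61 and -7.55 and fell by 4.03 (log2 -4.03, SE 0.69, adjusted p = 0.00772). Only 1 DSS array was well above background for Hamp, so the size is not firm. Its call was lost with normexp and in a fit of the 4 ATF6bKO arrays. Without DSS replicate 1 and without DSS replicate 2, Steap4 changed by 2.18 and 2.33, and Hamp by -5.00 and -3.06. Of 11 urea cycle genes (median -0.01) Nags and Otc (log2 -3.48, adjusted p = 0.00617) fell and Arg1 rose, the last not without DSS replicate 2. Otc, which makes citrulline, was at -1.60, -1.58, -4.48 and -5.66, and the DSS arrays lay below the UT arrays. Of 17 prostaglandin genes 2 rose, the prostacyclin receptor Ptgir (1.29, adjusted p = 0.0127) and the synthase Ptges (0.97, adjusted p = 0.0323), with a median of 0.35 and 0 with either DSS array left out.

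Of 17 circadian clock genes 3 fell and 1 rose (median -0.39), and with either DSS array left out 2 fell and 0 rose. Per2, a repressor of the clock, was at -1.17, -0.94, -3.44 and -3.41 (log2 -2.37, SE 0.33, adjusted p = 0.00339). Cry1 fell by 0.81 (log2 -0.81, adjusted p = 0.0465) and Bhlhe41 rose by at least 1.36-fold (adjusted p = 0.0401). The call of Cry1 was lost in 14 of 22 alternatives and that of Bhlhe41 in 16 of 21. For comparison, 5.7% of all genes tested rose and 7.21% fell. The sources used here do not give the time of day at which colon was taken.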
